A study of Mus musculus with 10 samples.

Results

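The genes described here are the machinery of autophagy and of the lysosome in cultured mouse cortical neurons that carried or lacked the transcription factor ATF4 and that were exposed to sodium arsenite or to vehicle. The members were a named list of 36 genes, chosen for what their proteins do, and each was read from its brightest probe set with a single gene symbol. The arrays measured 35 of them among 22180 genes in all. They were 22 autophagy genes and 13 lysosomal genes. Optn, which encodes a cargo receptor, was not analysed here. The level of a gene is a normalised log2 intensity throughout, and levels of different genes cannot be set against each other because each has its own probes.

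Macroautophagy encloses cytoplasm in a double membrane, the autophagosome, which fuses with a lysosome whose acid hydrolases degrade the contents. A kinase complex with Ulk1 starts the process, a lipid kinase complex with Becn1 and Atg14 marks the membrane, and a conjugation system joins ATG8 proteins to lipid so that the membrane grows and takes up cargo. Many of these genes are read by TFEB and TFE3 through E-box motifs, and several are known targets of ATF4, the effector of the integrated stress response, in other cells. Neurons do not divide and depend on this pathway to clear proteins and organelles, and arsenite reacts with thiols and causes oxidative and proteotoxic stress.

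The study hybridised 10 arrays. ATF4-deficient neurons exposed to 5 µM arsenite (KO-ARS) gave 2 arrays, ATF4-deficient neurons with vehicle (KO-Ctrl) 2, wild-type neurons exposed to 5 µM arsenite (WT-ARS) 4 and wild-type neurons with vehicle (WT-Ctrl) 2. All cultures came from the cortex of embryos of embryonic day 14.5 to 15.5, were grown in Neurobasal/B27 medium with Glutamax and antibiotics, and were exposed for 12 h at day 7 in vitro. The labels give neither the strain nor the part of Atf4 that is deleted, and they call the samples biological replicates without saying whether a replicate is an embryo, a litter or a culture. Only total RNA was measured, so fewer cells of a type and less RNA per cell cannot be told apart in any value below.

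The genotype labels were checked against Atf4 first. Its level was 7.54 and 7.70 in KO-ARS and 7.65 and 7.48 in KO-Ctrl, against 9.43 to 9.91 in WT-ARS and 9.09 and 9.56 in WT-Ctrl. Every ATF4-deficient array lay below every wild-type array. The difference was -1.76 under vehicle (limma, adjusted p = 0.00876) and -2.08 under arsenite (adjusted p = 0.000718), and the labels do not say where the probes lie relative to the deletion. All 10 neuron markers were above the dim level of 6.64, the 90th percentile of 1390 olfactory and vomeronasal receptor genes, in every group. Of the members, 34 were above that level and Tfeb, with group means of 5.90 to 5.98, was below it. Along the first principal component over all genes, KO-ARS replicate 2 stood apart at 29.41, with the other arrays between -18.15 and 8.70.

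Arsenite raised 3 members when its effect was averaged over the genotypes, namely Lamp2, Gla and Atg14, and lowered none past the threshold. Lamp2 encodes a glycoprotein of the lysosomal membrane needed for the fusion of autophagosomes with lysosomes, and one of its isoforms is the receptor of chaperone-mediated autophagy. Gla encodes alpha-galactosidase A, the lysosomal hydrolase that is deficient in Fabry disease. Atg14 encodes the subunit that directs the lipid kinase complex to sites where autophagosomes form. Over all genes 3.07% passed an adjusted p of 0.05 in this averaged comparison, and 1.65% passed as higher with arsenite. At an unadjusted p under 0.05, 13 of 35 members passed, against 16.1% of all genes.

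Lamp2 had levels of 9.78 and 9.73 in KO-ARS and 9.37 and 9.09 in KO-Ctrl. In wild-type neurons its levels were 9.70, 9.70, 9.66 and 9.68 in WT-ARS and 9.21 and 9.34 in WT-Ctrl. All 6 arsenite arrays lay above all 4 vehicle arrays. The averaged log2 difference was 0.47 with an SE of 0.071 and an adjusted p of 0.00674 (limma). In ATF4-deficient neurons alone it was 0.53, a 1.44-fold rise (SE 0.11, 95% interval 0.29 to 0.76, adjusted p = 0.0441), and in wild-type neurons alone 0.41 (interval 0.20 to 0.61, adjusted p = 0.101). The averaged call held in 18 of 18 alternative settings. The call within ATF4-deficient neurons held in 5 of 19 and was lost when any single one of the 10 arrays was left out, with adjusted p from 0.0555 without KO-Ctrl replicate 1 to 0.224 without KO-Ctrl replicate 2. Without KO-ARS replicate 2, the array that stood apart, the difference was 0.55 (adjusted p = 0.17) and the averaged one 0.48 (adjusted p = 0.0229).

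Gla had levels of 8.50 and 8.26 in KO-ARS and 8.21 and 8.15 in KO-Ctrl. Its levels were 8.50, 8.53, 8.36 and 8.43 in WT-ARS and 7.76 and 7.95 in WT-Ctrl. The WT-Ctrl arrays were lowest, and the KO-Ctrl arrays lay between them and the arsenite arrays of either genotype. Arsenite raised Gla by 0.60 in wild-type neurons, a 1.52-fold rise (SE 0.098, interval 0.39 to 0.82, adjusted p = 0.0338, limma). In ATF4-deficient neurons the difference was 0.20 (interval -0.05 to 0.45, adjusted p = 0.55), and averaged over the genotypes it was 0.40 (SE 0.075, adjusted p = 0.0181). The difference between the genotypes in the response was -0.41 (interval -0.73 to -0.07), with an adjusted p of 0.826. Gla and Lamp2 both lie on the X chromosome. Of all genes, the X-linked Xist had the lowest arsenite difference in wild-type neurons, -1.52, and the highest difference between the responses, 1.99. Whether the mix of male and female embryos differed between the groups was not tested. The wild-type call of Gla held in 8 of 19 alternative settings. It was lost without any single one of the WT-Ctrl, WT-ARS or KO-Ctrl arrays, with a difference of 0.51 and an adjusted p of 0.324 when WT-Ctrl replicate 1 was left out. The averaged call held in 14 of 18, with 0.46 and an adjusted p of 0.0224 without KO-ARS replicate 2, and was lost without KO-Ctrl replicate 1 or 2 or WT-Ctrl replicate 1, with adjusted p of 0.0563, 0.0681 and 0.0874.

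Atg14 had levels of 8.10 and 8.12 in KO-ARS and 7.75 and 7.73 in KO-Ctrl. In wild-type neurons it had 8.46, 8.19, 8.07 and 8.17 in WT-ARS and 7.68 and 7.95 in WT-Ctrl. All 6 arsenite arrays lay above all 4 vehicle arrays. The averaged difference was 0.39 (SE 0.089, adjusted p = 0.0403, limma), with 0.37 in ATF4-deficient neurons (adjusted p = 0.285) and 0.41 in wild-type neurons (adjusted p = 0.184). The averaged call held in 9 of 18 settings. It was lost without KO-ARS replicate 1 or 2, KO-Ctrl replicate 1 or 2, WT-ARS replicate 2 or 4, or WT-Ctrl replicate 1 or 2, with adjusted p from 0.0544 to 0.161 in those fits.

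**Figure D1:**
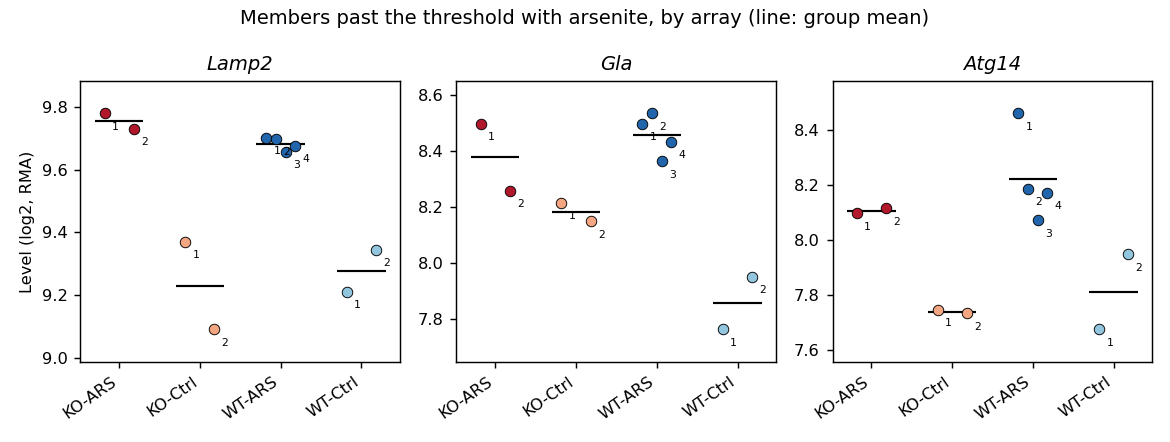
Normalised log2 intensity of Lamp2, Gla and Atg14 on each of the 10 arrays, by group from KO-ARS to WT-Ctrl; each point is 1 array and each line is the group mean. For Lamp2 and Atg14 every arsenite array lies above every vehicle array, while for Gla the KO-Ctrl arrays at 8.21 and 8.15 lie above the WT-Ctrl arrays at 7.76 and 7.95.

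The promoters of these 3 genes are printed because they passed the test and because the regulators named above are known to read defined motifs. Each window runs 250 bases before to 50 bases after the RefSeq transcript start, on build GRCm38.p6, and is written 5′ to 3′ on the gene's own strand with matched motif letters in capitals. Lamp2 lies at chrX:38456411-38456710, Gla at chrX:134600956-134601255 and Atg14 at chr14:47568385-47568684, all on the minus strand.
Lamp2: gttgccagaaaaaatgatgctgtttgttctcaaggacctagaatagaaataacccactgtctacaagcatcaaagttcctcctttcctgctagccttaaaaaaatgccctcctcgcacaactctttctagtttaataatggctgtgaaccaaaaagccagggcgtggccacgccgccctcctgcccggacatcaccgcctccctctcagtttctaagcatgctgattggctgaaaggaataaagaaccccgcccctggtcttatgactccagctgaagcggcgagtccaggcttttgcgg
Gla: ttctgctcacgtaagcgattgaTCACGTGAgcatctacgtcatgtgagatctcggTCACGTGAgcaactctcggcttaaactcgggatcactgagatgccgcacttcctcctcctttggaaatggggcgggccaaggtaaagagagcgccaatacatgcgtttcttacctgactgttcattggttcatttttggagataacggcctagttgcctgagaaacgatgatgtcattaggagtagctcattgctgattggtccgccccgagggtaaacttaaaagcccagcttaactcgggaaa
Atg14: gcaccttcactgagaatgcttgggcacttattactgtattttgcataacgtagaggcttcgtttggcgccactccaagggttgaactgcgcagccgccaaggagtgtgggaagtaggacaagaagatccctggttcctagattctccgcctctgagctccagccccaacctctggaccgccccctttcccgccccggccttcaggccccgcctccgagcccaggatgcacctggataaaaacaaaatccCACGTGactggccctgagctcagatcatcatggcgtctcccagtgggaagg
The motifs searched on both strands were the CLEAR core TCACGTGA, the full CLEAR motif, which adds a flanking G and C, the E-box CACGTG that lies within both, the ATF4 motif TGATGNAA and the NRF2 motif TGACNNNGC. The Gla window held 2 copies of the CLEAR core, starting 228 and 195 bases before the start, the Atg14 window held 1 E-box starting 1 base before it, and the Lamp2 window held none of these letters.

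Windows were found for 29 of the 35 members, 34 windows in all, and the same motifs were counted in 32851 mouse promoter windows of equal length. The CLEAR core, which was added after the other motifs had been counted, occurred in 5 of the 34, against 0.974% of all windows. Those 5 were the windows of Atg3, Ctsa, Ctsd, Gla and Mcoln1. The E-box occurred in 10, against 7.15%, and 6 of those 10 genes were lysosomal. The full CLEAR motif occurred in 0 of the 34, against 0.326%. The ATF4 motif occurred in 1, that of Ctsl, against 3.97%, and the NRF2 motif in 6, against 12.4%. These are counts of letters in a window and not of bound sites, and no test was run on them. Many of these genes were already known to be read through E-box motifs.

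Within each genotype few members passed the threshold under arsenite. In ATF4-deficient neurons 1 member passed, Lamp2, against 1.15% of all genes (0.631% as higher), and in wild-type neurons 1 passed, Gla, against 0.482% (0.23% as higher). At an unadjusted p under 0.05, 7 of 35 passed in ATF4-deficient neurons (12% of all genes) and 7 of 35 in wild-type neurons (10.9%). The log2 difference was under 0.25 in size for 27 members in ATF4-deficient neurons and for 28 in wild-type neurons, where 82.3% and 87.6% of all genes were. The 22 autophagy genes had median differences of -0.03 in ATF4-deficient and -0.10 in wild-type neurons, and the 13 lysosomal genes 0.20 and 0.05. The medians of all genes were -0.01 and -0.02 in the same comparisons. The lysosomal median in ATF4-deficient neurons was 0.08 without KO-ARS replicate 1 and 0.32 without KO-ARS replicate 2, and that in wild-type neurons was -0.04 without WT-ARS replicate 1.

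**Figure D2:**
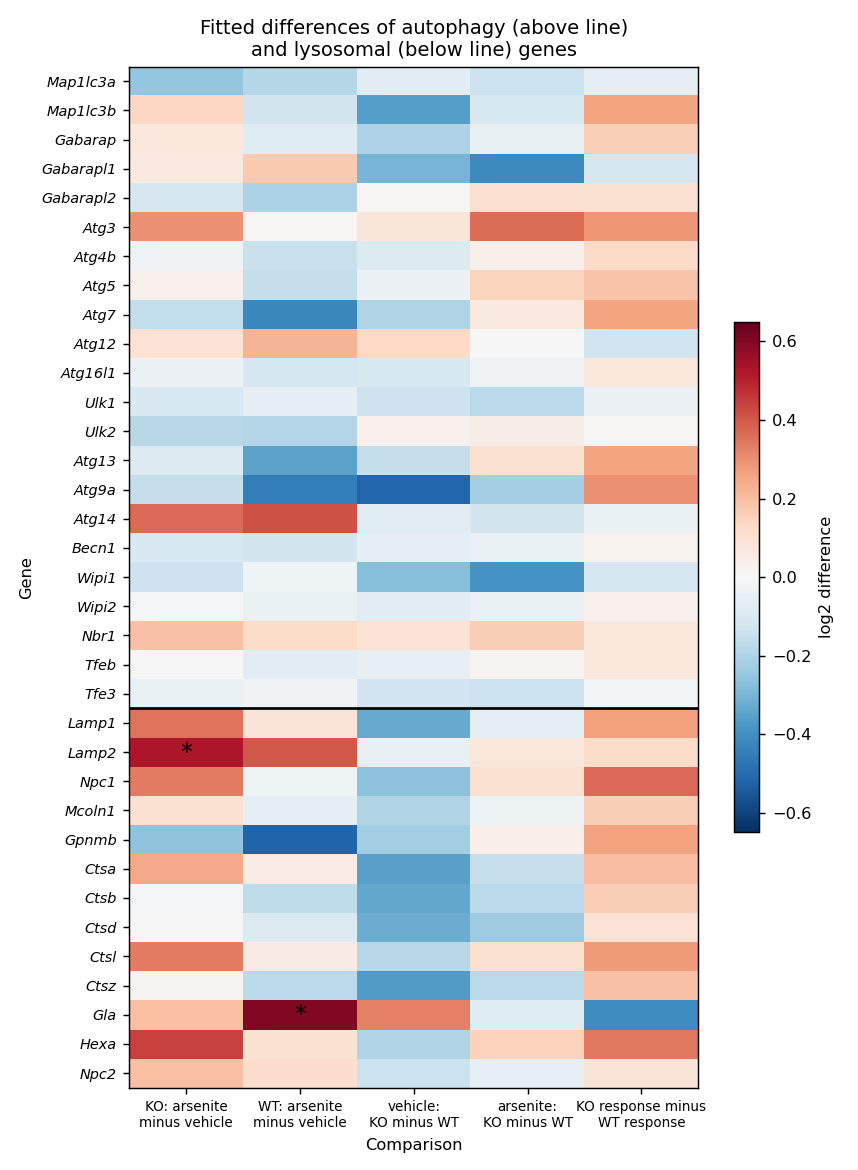
Log2 differences of the 35 measured members (rows, by role) in 5 comparisons (columns), with colour for the size and direction and an asterisk where limma's adjusted p was under 0.05. Lamp2 under arsenite in ATF4-deficient neurons and Gla under arsenite in wild-type neurons carry the only 2 asterisks.

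The ATG8 proteins are the ubiquitin-like proteins that are joined to lipid on the growing membrane. None of the 5 passed the threshold in any comparison, where 0% to 3.07% of all genes did. Map1lc3a had levels of 8.35 and 8.14 in KO-ARS and 8.57 and 8.42 in KO-Ctrl, and 8.37, 8.47, 8.38 and 8.33 in WT-ARS and 8.596 and 8.546 in WT-Ctrl. The arsenite arrays lay below the vehicle arrays within each genotype, by -0.25 in ATF4-deficient (adjusted p = 0.37) and -0.18 in wild-type neurons (adjusted p = 0.504). Map1lc3b, the LC3B most often used to mark autophagosomes, differed by 0.14 in ATF4-deficient and -0.12 in wild-type neurons, and its arrays overlapped in both. Gabarapl1 had 10.34 and 9.74 in KO-ARS and 10.16 and 9.80 in KO-Ctrl, against 10.75, 10.32, 10.27 and 10.48 in WT-ARS and 10.28 on both arrays of WT-Ctrl. Its genotype difference was -0.41 under arsenite (interval -0.80 to -0.03, adjusted p = 0.386) and -0.30 under vehicle (adjusted p = 0.658), and under arsenite one ATF4-deficient array lay within the wild-type range.

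The 6 conjugation genes encode the enzymes and carriers that attach ATG8 proteins to lipid. None passed the threshold in any comparison, against 0% to 3.07% of all genes. Atg7, the activating enzyme, had 7.63 and 7.48 in KO-ARS and 7.73 and 7.71 in KO-Ctrl, and 7.63, 7.40, 7.37 and 7.59 in WT-ARS and 7.99 and 7.84 in WT-Ctrl. Arsenite arrays were below vehicle arrays in both genotypes, by -0.16 in ATF4-deficient (adjusted p = 0.656) and -0.42 in wild-type neurons (adjusted p = 0.119). Atg12, the ubiquitin-like protein joined to Atg5, had 9.66 and 9.48 in KO-ARS and 9.42 and 9.53 in KO-Ctrl, and 9.68, 9.53, 9.53 and 9.54 in WT-ARS and 9.36 and 9.33 in WT-Ctrl. The 2 WT-Ctrl arrays were the lowest of the 10, and the vehicle difference between genotypes was 0.13 (adjusted p = 0.719). Atg3, which passes ATG8 proteins to lipid, had 8.94 and 9.63 in KO-ARS and 8.90 and 9.08 in KO-Ctrl, against 8.65, 9.19, 9.10 and 8.76 in WT-ARS and 8.87 and 8.95 in WT-Ctrl. Its genotype difference under arsenite was 0.36 (interval -0.06 to 0.78, adjusted p = 0.49), and only KO-ARS replicate 2 lay above the wild-type arrays.

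Of the 8 genes of initiation and nucleation, Atg14 alone passed, in the averaged comparison above, where 3.07% of all genes did. Atg9a encodes the membrane protein whose vesicles seed the autophagosome. Its levels were 8.72 and 8.36 in KO-ARS and 8.84 and 8.55 in KO-Ctrl, against 8.83, 8.63, 8.62 and 8.96 in WT-ARS and 9.14 and 9.29 in WT-Ctrl. The 2 WT-Ctrl arrays were above the other 8. The genotype difference under vehicle was -0.52 (interval -0.86 to -0.17, adjusted p = 0.221) and the arsenite difference in wild-type neurons -0.45 (interval -0.75 to -0.15, adjusted p = 0.219), and both use the same 2 WT-Ctrl arrays. Wipi1, which binds the lipid mark of the nascent membrane, had 7.19 and 6.69 in KO-ARS and 7.19 and 6.96 in KO-Ctrl, against 7.60, 7.18, 7.06 and 7.47 in WT-ARS and 7.28 and 7.43 in WT-Ctrl. Its genotype difference under arsenite was -0.39 (interval -0.76 to -0.01, adjusted p = 0.403), and the groups overlapped.

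The cargo receptor Nbr1 had 9.92 and 9.72 in KO-ARS and 9.54 and 9.72 in KO-Ctrl, against 9.89, 9.68, 9.40 and 9.68 in WT-ARS and 9.53 and 9.55 in WT-Ctrl. Its genotype difference under arsenite was 0.16 (adjusted p = 0.648), within overlapping groups. Tfe3 differed by -0.14 between genotypes under arsenite (interval -0.31 to 0.04, adjusted p = 0.53), although both KO-ARS arrays, at 8.27 and 8.23, lay below the WT-ARS arrays at 8.29 to 8.44. Tfeb was below the dim level, and its differences ran from -0.07 to 0.02 within single genotypes and treatments.

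Among the 5 lysosomal membrane genes, Lamp2 was the only one past the threshold. Lamp1, its abundant partner in the lysosomal membrane, had 10.57 and 10.79 in KO-ARS and 10.28 and 10.37 in KO-Ctrl, and 10.65, 10.84, 10.74 and 10.71 in WT-ARS and 10.51 and 10.79 in WT-Ctrl. Its arsenite difference was 0.35 in ATF4-deficient neurons (interval 0.09 to 0.62, adjusted p = 0.252), with no overlap, and 0.09 in wild-type neurons (adjusted p = 0.855). Npc1, which exports cholesterol from the lysosome, had 9.116 and 9.085 in KO-ARS and 8.758 and 8.764 in KO-Ctrl, and 9.036, 9.023, 8.949 and 8.998 in WT-ARS and 8.927 and 9.132 in WT-Ctrl. The KO-Ctrl arrays were the lowest of the 10. Its arsenite difference was 0.34 in ATF4-deficient neurons (adjusted p = 0.154) and -0.03 in wild-type neurons (adjusted p = 0.948), and the difference between those responses was 0.37 (interval 0.09 to 0.65, adjusted p = 0.783). Gpnmb, a glycoprotein known to rise with lysosomal stress in macrophages, had 7.56 and 7.29 in KO-ARS and 7.93 and 7.44 in KO-Ctrl, and 7.60, 7.34, 7.48 and 7.15 in WT-ARS and 7.68 and 8.15 in WT-Ctrl. Its arsenite difference was -0.26 in ATF4-deficient neurons (adjusted p = 0.674) and -0.52 in wild-type neurons (interval -0.91 to -0.13, adjusted p = 0.274), and the wild-type groups did not overlap.

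The 5 lysosomal proteases did not pass in any comparison, where 0% to 3.07% of all genes did. Under vehicle all 5 lay lower on both KO-Ctrl arrays than on both WT-Ctrl arrays, where 21.4% of all genes did so. Their median difference was -0.33. The median over all lysosomal members in that comparison was -0.23, and -0.09 without KO-Ctrl replicate 2. Ctsz, a carboxypeptidase, had 7.85 and 7.59 in KO-ARS and 7.86 and 7.54 in KO-Ctrl, against 8.09, 7.85, 7.79 and 7.85 in WT-ARS and 7.96 and 8.17 in WT-Ctrl, and its vehicle difference was -0.37 (interval -0.69 to -0.04, adjusted p = 0.381). Ctsd, the main aspartic protease, had 10.26 and 9.79 in KO-ARS and 10.27 and 9.78 in KO-Ctrl, against 10.56, 10.19, 10.06 and 10.22 in WT-ARS and 10.30 and 10.41 in WT-Ctrl. The 2 KO-Ctrl arrays of Ctsd differed from each other by more than either genotype or treatment did on average, and its vehicle difference of -0.32 had an interval of -0.77 to 0.12 (adjusted p = 0.631).

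Among the enzymes and carriers of the lumen, Hexa encodes the alpha subunit of beta-hexosaminidase, which breaks down gangliosides. Its levels were 8.42 and 8.45 in KO-ARS and 8.03 and 7.95 in KO-Ctrl, and 8.55, 8.18, 8.06 and 8.35 in WT-ARS and 8.26 and 8.11 in WT-Ctrl. The arsenite difference was 0.44 in ATF4-deficient neurons (interval 0.13 to 0.76, adjusted p = 0.215), with no overlap, and 0.10 in wild-type neurons (adjusted p = 0.853), with overlap. Npc2, a soluble carrier of cholesterol, differed by 0.20 in ATF4-deficient and 0.11 in wild-type neurons, with adjusted p of 0.737 and 0.874.

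The genotype comparison asks how loss of ATF4 alone and under arsenite changed these genes. With limma 0 of 35 members passed under vehicle, where 0.433% of all genes did, and 0 passed under arsenite, where 0.343% did. At an unadjusted p under 0.05, 5 members passed under vehicle (10.9% of all genes) and 2 under arsenite (12.1%). Averaged over the treatments 0 members passed, against 1.82% of all genes, and 6 did so at an unadjusted p under 0.05, against 16.3%. The size of the difference was under 0.25 for 24 members under vehicle and for 32 under arsenite, against 83.6% and 86.2% of all genes.

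Under vehicle the signs were uneven. The difference was negative in 29 of 35 members and positive in 6, and all genes had a median of 0.00 with 51.1% positive. Both KO-Ctrl arrays lay below both WT-Ctrl arrays in 22 members, 12 autophagy and 10 lysosomal genes, where 21.4% of all genes did so. Gla and Atg12 lay above without overlap, where 21.2% of all genes did. The lysosomal median was -0.23 and the autophagy median -0.08, and the lysosomal one was -0.09 without KO-Ctrl replicate 2. Under arsenite the signs were 15 positive and 20 negative, where 54.3% of all genes were positive. The medians were -0.06 for lysosomal and -0.03 for autophagy genes, and the lysosomal one was 0.10 without KO-ARS replicate 2. Lamp2 and Npc1 were then above without overlap (10.6% of all genes), and Becn1 and Tfe3 below (7.95%). None of the 35 members passed the threshold in either comparison.

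The arsenite comparison in ATF4-deficient neurons and the vehicle comparison of genotypes share the 2 KO-Ctrl arrays, so the values stand side by side and are not independent of each other. Without overlap 9 members were higher with arsenite in ATF4-deficient neurons (18.1% of all genes) and 4 lower (20.7%), and 7 of the 9 were lysosomal. In wild-type neurons 4 were higher without overlap (7.86% of all genes), Atg12, Atg14, Lamp2 and Gla, and 9 were lower (12.7%).

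**Figure D3:**
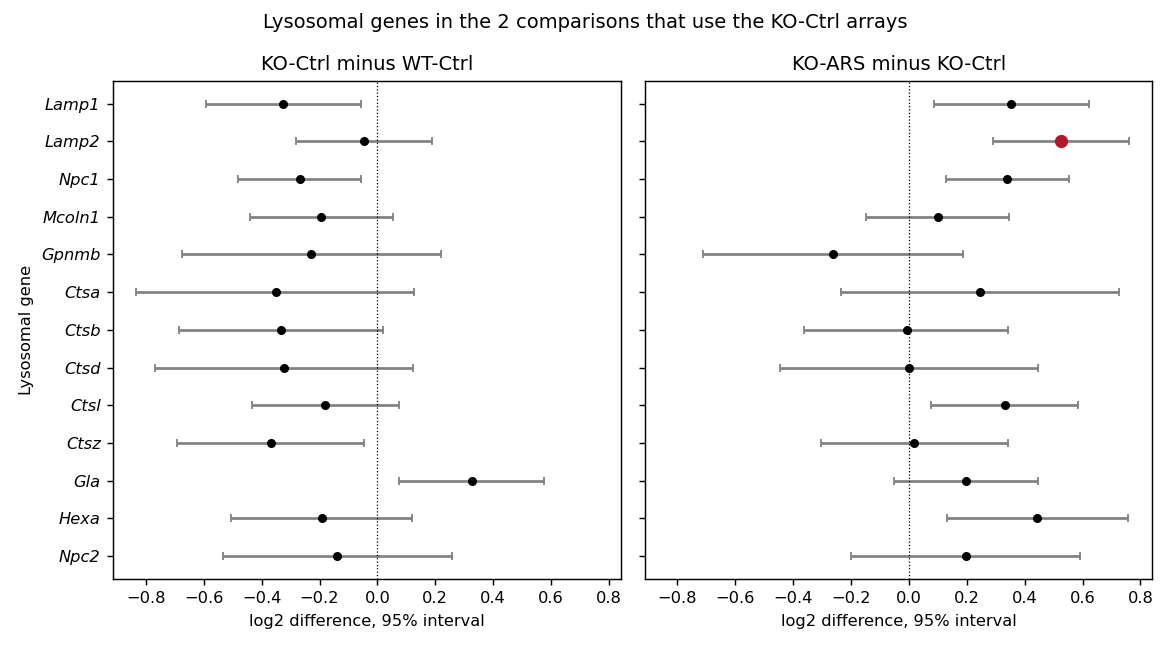
Log2 differences with 95% intervals for the 13 lysosomal genes, KO-Ctrl minus WT-Ctrl and KO-ARS minus KO-Ctrl, with red for an adjusted p under 0.05. Most vehicle differences lie left of 0 with Gla at 0.33 to the right, and only Lamp2 under arsenite, at 0.53, is red; both comparisons use the same KO-Ctrl arrays.

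Whether ATF4 loss altered the response to arsenite was tested as the difference between the 2 arsenite effects. With limma 0 of 35 members and 0 of 22180 genes passed (0%), and at an unadjusted p under 0.05, 2 members, Gla and Npc1, and 1330 genes (6%) did. The median of these differences was 0.19 for lysosomal and 0.07 for autophagy genes, against 0.02 for all genes. The lysosomal one was 0.09 without KO-ARS replicate 1, 0.33 without KO-ARS replicate 2, 0.34 without KO-Ctrl replicate 1 and 0.01 without KO-Ctrl replicate 2. For Lamp2 the difference was 0.12 (interval -0.19 to 0.43, adjusted p = 0.92). The sign was positive in 27 members and negative in 8, where 54.5% of all genes were positive. All members were read from the same arrays, so these signs are not independent of each other.

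Markers of other cell types were read as well, and several of those of astrocytes differed by genotype. The mean level of 11 astrocyte markers ranged from 7.15 to 7.48 in KO-ARS, 7.24 to 7.57 in KO-Ctrl, 7.61 to 8.16 in WT-ARS and 8.19 to 8.46 in WT-Ctrl. The ranges of the ATF4-deficient groups lay below those of the wild-type groups. Between genotypes under vehicle 10 of 11 had negative differences, with a median of -0.80. With limma 1 passed the threshold there, against 0.433% of all genes. Under arsenite 10 of 11 were negative, with a median of -0.56 and 1 past the threshold, against 0.343% of all genes. Averaged over the treatments 6 of 11 passed as lower, where 1.82% of all genes passed in either direction. At an unadjusted p under 0.05, 10 of 11 passed, against 16.3% of all genes. In that comparison 0 members passed the threshold. S100b was at or below the dim level in every group and Fgfr3 in all but WT-Ctrl. In wild-type cultures the median of the astrocyte markers under arsenite was -0.42. There 0 of 11 passed the threshold (limma), against 0.482% of all genes, and 7 an unadjusted p under 0.05, against 10.9%. Their part in the vehicle differences of the lysosomal genes was not tested.

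Microglia are rich in lysosomes. The mean level of 12 of their markers ranged from 6.58 to 6.76 in KO-ARS, 6.76 to 6.84 in KO-Ctrl, 6.64 to 6.70 in WT-ARS and 6.66 to 6.76 in WT-Ctrl. Csf1r, Itgam, C1qc, P2ry12 and Ptprc were at or below the dim level in every group. Between genotypes under vehicle 0 of 12 passed (limma), against 0.433% of all genes, and 1 did at an unadjusted p under 0.05, against 10.9%. For arsenite in ATF4-deficient neurons 11 of 12 had negative differences, with a median of -0.135, where 47.2% of all genes were positive. In that comparison 7 were lower without overlap, against 20.7% of all genes, and 0 passed the threshold, against 1.15%. The 7 oligodendrocyte lineage markers had a median of -0.16 between genotypes under vehicle, with 5 negative differences. Averaged over the treatments 3 of the 7 passed as lower, where 1.82% of all genes passed in either direction. The 5 endothelial markers had a median of 0.04 under vehicle. The 6 mural and fibroblast markers had a median of -0.02, but Rgs5 among them differed by 1.29 between KO-Ctrl and WT-Ctrl and by -1.03 between KO-ARS and KO-Ctrl, both past the threshold, and was above the dim level in KO-Ctrl only. The 10 neuron markers had means of 10.39 to 10.47 in KO-ARS, 10.37 to 10.42 in KO-Ctrl, 10.29 to 10.47 in WT-ARS and 10.40 on both arrays of WT-Ctrl. Single markers differed in opposite directions. Between genotypes averaged over the treatments, differences ran from -0.44 for Tubb3 to 0.49 for Nefl. With limma 1 marker passed there as higher and 1 as lower, where 1.82% of all genes passed. Under vehicle 5 were positive and 5 negative, and 4 had an unadjusted p under 0.05 (10.9% of all genes).

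Replicates of the same group differed in a way that many members shared. KO-ARS replicate 2 was below replicate 1 in 27 of 35 members, against 58.6% of all genes, with a median difference of -0.19 against -0.05. KO-Ctrl replicate 2 was below replicate 1 in 25 of 35, against 52.3% of all genes, with medians of -0.11 and -0.01. In 22 members, 10 of the 13 lysosomal genes among them, replicate 2 was lower in both ATF4-deficient groups, where 35.8% of all genes were. In WT-ARS, replicates 2 and 3 were both below replicates 1 and 4 in 14 members, against 19.0% of all genes. The labels do not give that split. It matches the first principal component of these same data, with 5.81 and 5.96 for replicates 2 and 3 against -8.09 and -8.8. WT-Ctrl replicate 2 was below replicate 1 in 18 of 35, against 54.2%. What differed between these cultures was not tested.

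**Figure D4:**
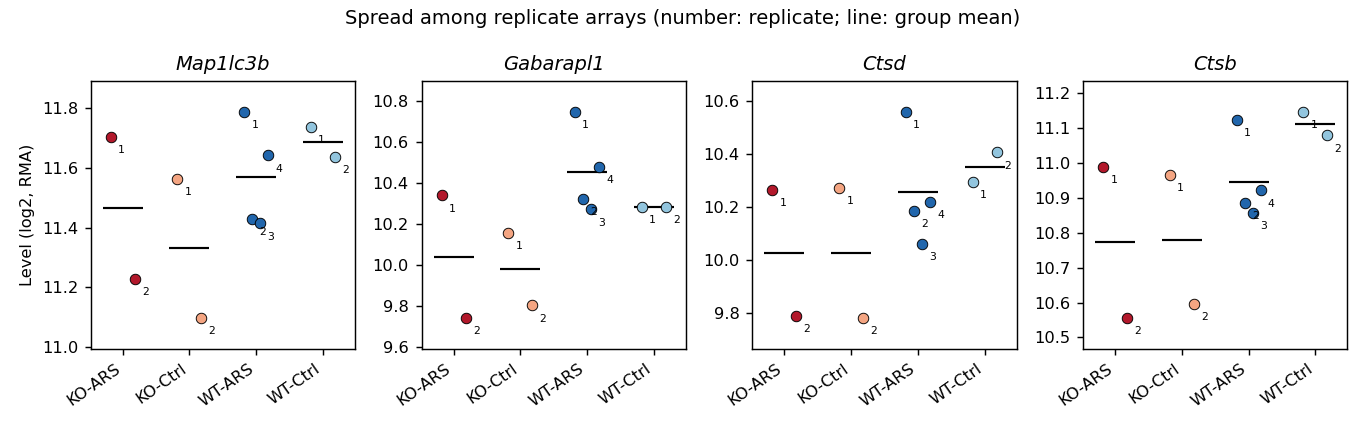
Normalised log2 intensity of Map1lc3b, Gabarapl1, Ctsd and Ctsb on each array, by group from KO-ARS to WT-Ctrl; each point is 1 array with its replicate number and each line the group mean. In these 4 genes replicate 2 lies below replicate 1 in both ATF4-deficient groups, for Ctsd at 9.79 against 10.26 under arsenite and 9.78 against 10.27 under vehicle.

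Further genes of the pathway were read from lists of 33 other autophagy genes, 33 other lysosomal hydrolases and cofactors, 24 other lysosomal membrane genes, 17 subunits of the proton pump and 10 genes of the TFEB family and its regulators. The hydrolases had negative genotype differences under vehicle in 26 of 33, with a median of -0.14, where 51.1% of all genes were positive. With limma 0 of 33 passed, against 0.433% of all genes, and 6 did at an unadjusted p under 0.05, against 10.9%. The medians of the other lists in that comparison were 0.00 for autophagy genes, -0.05 for membrane genes, -0.04 for pump subunits and 0.08 for the TFEB family list, and 0 genes of these lists passed it. No gene of the lists passed for arsenite in wild-type neurons (0.482% of all genes), and 1 passed in ATF4-deficient neurons (1.15%). Atg10 encodes the enzyme that joins Atg12 to Atg5, and arsenite raised it. It had 8.12 and 7.98 in KO-ARS and 7.27 and 7.14 in KO-Ctrl, and 7.74, 7.64, 7.60 and 7.83 in WT-ARS and 7.30 and 7.27 in WT-Ctrl. All arsenite arrays lay above all vehicle arrays. The difference was 0.84 in ATF4-deficient neurons (SE 0.11, adjusted p = 0.00607, limma), 0.42 in wild-type neurons (adjusted p = 0.093) and 0.63 averaged over the genotypes (adjusted p = 0.00142). The call in ATF4-deficient neurons held in 17 of 19 settings and was lost without KO-Ctrl replicate 2, while the averaged call held in 18 of 18. The difference between the genotypes in the response was 0.42 (interval 0.11 to 0.74, adjusted p = 0.753).

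Pik3r4, the regulatory subunit of the lipid kinase complex, fell by 0.43 with arsenite averaged over the genotypes (adjusted p = 0.0215, 12 of 18 settings). Its levels were 7.92 and 7.76 in KO-ARS and 8.01 and 8.25 in KO-Ctrl, and 7.63 to 7.97 in WT-ARS and 8.39 and 8.34 in WT-Ctrl. Slc38a9, the lysosomal sensor of arginine for mTORC1, rose by 0.32 (limma, adjusted p = 0.0302, 9 of 18 settings). In this averaged arsenite comparison 3.07% of all genes passed the threshold. The genes Tpcn1, Cd63 and Fnip1 differed by genotype averaged over the treatments, where 1.82% of all genes passed. Tpcn1, a cation channel of endosomes and lysosomes, differed by -0.81 (adjusted p = 0.0213, 14 of 18 settings), with 7.56 and 7.26 in KO-ARS and 7.60 and 7.35 in KO-Ctrl, against 7.72 to 8.28 in WT-ARS and 8.28 and 8.75 in WT-Ctrl. Cd63, a tetraspanin of late endosomes, differed by -0.49 (adjusted p = 0.0382, 8 of 18 settings), and Fnip1, a partner of folliculin, by 0.36 (adjusted p = 0.0397, 6 of 18 settings). Each of these 5 calls was lost without KO-Ctrl replicate 2. Pik3r4 was also lost without either WT-Ctrl array or KO-ARS replicate 2, and Tpcn1 without WT-Ctrl replicate 2 or KO-ARS replicate 2. Slc38a9 was lost without any array other than KO-Ctrl replicate 1 and WT-ARS replicate 4, Cd63 without any other than KO-Ctrl replicate 1 and WT-ARS replicate 3, and Fnip1 without any other than WT-Ctrl replicate 1. The highest adjusted p over the alternatives ran from 0.0916 for Pik3r4 to 0.192 for Cd63.

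**Figure D5:**
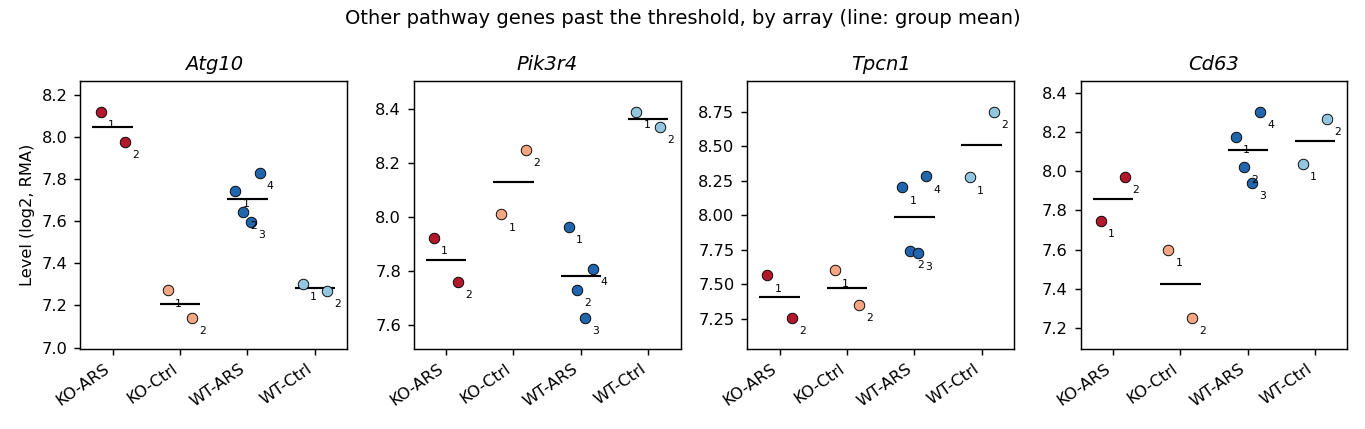
Normalised log2 intensity of Atg10, Pik3r4, Tpcn1 and Cd63 on each array, by group from KO-ARS to WT-Ctrl; each point is 1 array and each line the group mean. Atg10 is higher on every arsenite array, with 8.12 and 7.98 in KO-ARS against 7.27 and 7.14 in KO-Ctrl, and Tpcn1 on every ATF4-deficient array is at or below 7.60.

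A last list held 12 autophagy genes reported as targets of ATF4 or CHOP in mouse embryonic fibroblasts, 10 of them members here. Atg10 was the only one of the 12 past the threshold for arsenite, in ATF4-deficient neurons (1.15% of all genes) and in the average (3.07%). With limma 0 of 12 passed for genotype, under vehicle (0.433% of all genes), under arsenite (0.343%) or averaged (1.82%). At an unadjusted p under 0.05, 0 passed under vehicle (10.9% of all genes) and 1 under arsenite (12.1%). The median genotype difference was -0.05 under vehicle and 0.04 under arsenite, against 0.00 and 0.02 for all genes.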

How the data were processed

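Total RNA (100 ng per array, per the labels' protocols) was labelled with the GeneChip WT PLUS kit and hybridised to 10 Affymetrix mouse arrays. The values are log2 expression values that the authors deposited after Robust Multiarray Average normalisation in Partek 6.6, per the submitters' processing notes and design description. The scanner files were not used here, so background correction, saturation, slide and scan date could not be examined, and precision is limited by the number of arrays.

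Of 41345 probe sets, 23521 were paired with a single gene symbol, 1814 with several and 16010 were not listed in the platform table. Through Entrez identifiers 23328 of the single-symbol sets matched the RefSeq table of GRCm38.p6 and 193 kept the symbol as given. The brightest probe set by mean over all arrays stood for each of 22180 genes. Array medians were 7.00 to 7.09.

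limma 3.58.1 in R 4.3.3 was fitted to all genes with 1 mean per group over all 10 arrays, leaving 6 residual degrees of freedom. It gave arsenite against vehicle in each genotype, ATF4-deficient against wild type under each treatment, the difference between the arsenite effects, and the averaged effects. P-values were adjusted by Benjamini-Hochberg over all genes, with a threshold of 0.05. They measure only the spread between these samples, which may be technical.

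The members, lists and tests were chosen with earlier results of these data known. Values on every array are given for members past the threshold in any comparison and for the 2 members with the largest difference in each direction in each comparison; Atg7, Lamp1, Tfe3, Map1lc3b and Ctsd were added after their values were seen. From the other pathway lists, up to 6 genes past the threshold per comparison were named. Promoter windows are from RefSeq (GRCm38.p6), and the core motif TCACGTGA was added after the other motifs had been counted. Protein sequences of the ATG8 family were not used here. Alternatives were the replicate block, only the arrays of the groups compared, array weights, other variance priors, equal array medians, the mean of a gene's probe sets, all probe sets, dim genes left out, and each array left out in turn.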

Additional observations from a re-analysis of the deposited data

Results flagged for a closer look

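In WT-ARS, the only group with 4 arrays, 2 of the 35 measured members had 1 array far from the other 3 by Dixon's gap test, which chance alone trips in about 1 in 20 groups. Atg12 was at 9.677 in replicate 1, with the other 3 arrays between 9.527 and 9.539, and the gap was 0.923 of the range. Tfeb was at 5.841 in replicate 1, with the others between 5.923 and 5.924 and a gap of 0.993 of the range, and all 4 of its values lay below the dim level. Exactly equal deposited values occurred in both genes, 9.527 on 3 of the 10 arrays for Atg12 and 5.924 on 4 for Tfeb. The rate of 1 in 20 does not allow for such ties.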

How the results depend on the processing

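Replicate numbers 3 and 4 occur only in WT-ARS, so with the replicate block those arrays took no part in any comparison. Results with the block therefore also reflect fewer WT-ARS arrays. No member changed direction while past the threshold in any alternative run. The count of members past it for arsenite in ATF4-deficient neurons, 1 with all 10 arrays, was 0 with array weights, with all probe sets tested, with the replicate number as a block, with only the arrays of the groups compared, and in each fit that left out 1 array (0 to 0). In wild-type neurons the count of 1 was 0 with all probe sets, with the replicate block and with only the arrays of the groups compared, and 0 to 1 with arrays left out. Averaged over genotypes the count of 3 was 1 with all probe sets and 1 to 3 with arrays left out. Atg7 passed the averaged arsenite comparison only with dim genes left out (-0.29, adjusted p = 0.0495, against 0.0776). Gla kept its averaged call in 14 of 18 alternatives, its adjusted p reaching 0.0874 without WT-Ctrl replicate 1, and it was also lost without KO-Ctrl replicate 1 or 2 and with all probe sets.

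With 1 array left out, which can leave a group with 1 array assumed to vary like the other groups, the lysosomal median ran from 0.077 to 0.315 for arsenite in ATF4-deficient neurons, from -0.04 to 0.066 in wild-type neurons and from 0.025 to 0.189 for the average. For genotype it ran from -0.299 to -0.091 under vehicle, from -0.104 to 0.097 under arsenite and from -0.141 to -0.077 averaged, and for the difference between the responses from 0.014 to 0.342. The last was 0.102 with the replicate block, which used only replicates 1 and 2 of WT-ARS, against 0.191. The autophagy median with 1 array left out ran from -0.097 to 0.015 for arsenite in ATF4-deficient neurons, changing sign, from -0.118 to -0.064 in wild-type neurons, from -0.147 to -0.051 for genotype under vehicle and from -0.091 to 0.003 under arsenite, where it also changed sign.

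Over all genes, calls for arsenite in ATF4-deficient neurons were 256, against 135 with array weights, 56 with all probe sets, 0 with only the groups compared and 50 to 200 with an array left out, and 286 with the replicate block. In wild-type neurons they were 107, against 186, 10, 11 and 0 to 75 in the same alternatives and 17 with the replicate block. For genotype under vehicle they were 96, against 228, 1, 0 and 0 to 99, with 165 under the block, and under arsenite 76, against 40, 20, 41 and 1 to 64, with 4 under the block. The averaged calls were 682 for arsenite, against 258 with all probe sets and 242 to 654 with an array left out, and 404 for genotype, against 52 and 58 to 377. With dim genes left out the counts were 339, 162 and 190 for arsenite in either genotype and for genotype under vehicle. The labels do not say that a replicate number marks a shared litter, batch or day. Over all genes, deviations from the group means of arrays with the same number correlated from -0.0555, between KO-Ctrl and WT-Ctrl, to 0.403, between KO-ARS and KO-Ctrl. Not every pair was over 0.1, so the numbers were not taken as pairs in the fits above, although arrays of the 2 ATF4-deficient groups with the same number did deviate together.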

Other observations

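A second single-symbol probe set existed for 2 members. For Gabarap it read 8.23 and 8.56 in KO-ARS, 8.14 and 8.22 in KO-Ctrl, 8.12, 8.76, 8.16 and 8.32 in WT-ARS and 7.99 and 8.64 in WT-Ctrl. These groups overlapped, whereas on the brighter set WT-ARS (11.09 to 11.11) and KO-Ctrl (11.10 and 10.88) lay below WT-Ctrl (11.19 and 11.18) without overlap. For Npc1 it read 5.74 to 6.02 on the 10 arrays, below the dim level. In 12 of the 35 members at least 2 arrays carried exactly the same deposited value, as did 35.3% of all genes: Gabarapl2 was 9.10 and Tfeb 5.92 on 4 arrays each. A spread between 2 arrays, such as that of Gabarapl1 in WT-Ctrl, can therefore read 0.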
